A study of Danio rerio with 4 samples.

Results

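Genes of early B cell development and of the B cell receptor were described in kidney marrow progenitors of tet2-mutant and wild-type zebrafish. Members were chosen by symbol (rag1, rag2, dntt, cd79a, cd79b, ighz, ighm, pax5, ebf1 with its copies, and blnk), which gave 12 of the 32434 genes in the count table. Of these, 10 had more than 5 reads over all libraries and were tested. The remaining 2, ebf1b and a copy annotated EBF1 (2 of 3), had 1 and 0 reads in all. There were 2 libraries from fish homozygous for a tet2 deletion made with zinc finger nucleases, which truncates the Tet2 dioxygenase and disrupts its catalytic activity, and 2 from wild-type fish. The sample titles put the fish at 4 months and the descriptions at 15 months, and the study describes the comparison at the age in the titles. Progenitors were gated by forward and side scatter, with lymphocytes as a separate scatter population, no lineage marker is stated, and the share of lymphocytes within the gate was not measured here. The labels do not say whether replicates came from separate fish. The study speaks of replicate pools in its methylation part and took RNA from part of the sorted cells. The p-values rest only on spread between these libraries, estimated with information shared across genes. In fits with the replicate number as a block, this is the spread left after that number is accounted for.

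In zebrafish, B cells arise in the kidney marrow. Their immunoglobulin genes are assembled by V(D)J recombination, in which the Rag1 and Rag2 proteins together cut the DNA and terminal transferase, encoded by dntt, adds bases at the joints. The assembled heavy chain, mu (ighm) or the teleost-specific zeta (ighz), reaches the surface with the signalling pair Cd79a and Cd79b. The transcription factors Ebf1 and Pax5 set up and maintain B cell identity, and the adaptor Blnk carries the receptor's signal onward.

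Transcripts of pax5, CD79B, ighz and rag2 were lower in the mutant progenitors than in wild type by every fit that was run. Levels were 3.08 times lower for rag2, 3.52 times for CD79B, 5.29 times for pax5 and 9.30 times for ighz. In the bias-adjusted edgeR fit the adjusted p was 0.0244 for rag2, 0.0111 for CD79B, 0.0153 for pax5 and 0.00875 for ighz. These values are much larger than those of the main edgeR fit given below for each gene. The transcripts of rag1, cd79a and ebf1a were also lower in every fit, but were called in only some of them. The mu heavy chain gene ighm and the adaptor gene blnk did not pass the test. In all, 7 of 10 tested members were called lower and 0 higher, beside 1.90% lower and 1.80% higher among all 17242 tested genes. The members were chosen with earlier results of these data known. Their counts here and below are therefore not independent evidence of a direction. A call needed an adjusted p below 0.05 and a log2 fold change beyond 1 in either direction in edgeR's quasi-likelihood test with the replicate number as a block. edgeR with the block, edgeR without it and DESeq2 with it together called 4 of the 10 lower and 0 higher, beside 0.580% lower and 0.522% higher among all tested genes. With no adjustment, 8 members were lower and 0 higher at an edgeR p under 0.05, beside 8.37% lower and 8.73% higher among all tested genes. DESeq2 likewise called 0 higher. In TMM-scaled level, both mutant libraries lay below both wild-type libraries for 9 of the 10 members, which was so for 21.7% of all tested genes. The 9 include dntt, which had only 1 and 0 reads in mutants and 3 and 2 in wild type. They also include ighm, whose groups overlap when scaled by library totals alone.

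**Figure D1:**
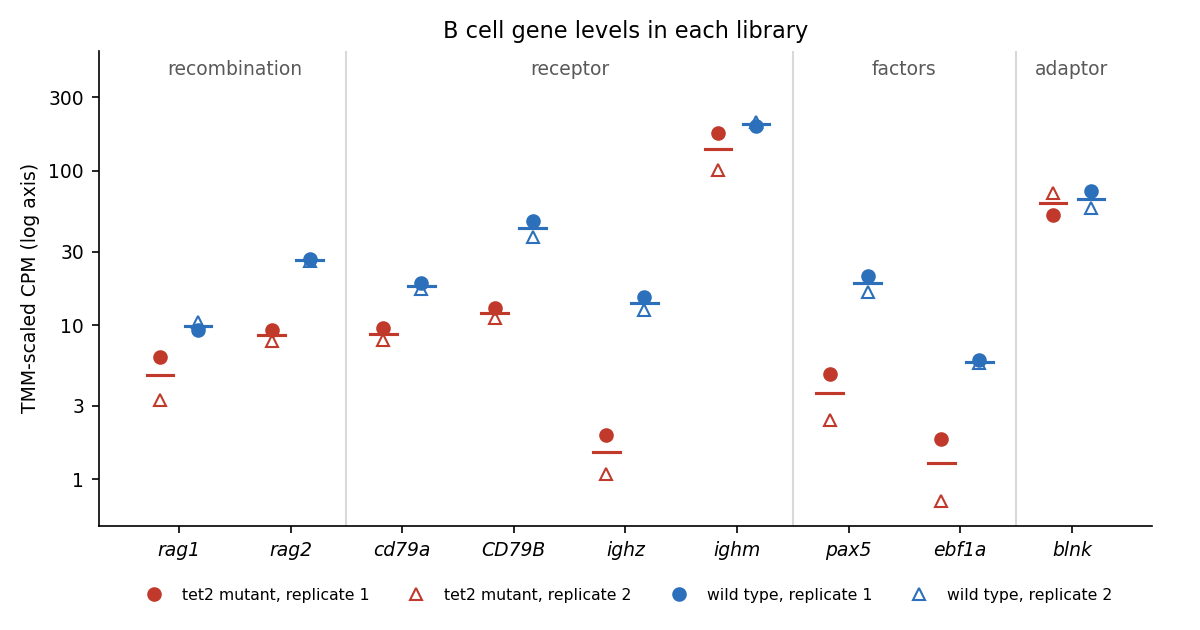
Level of 9 member genes in each library, as TMM-scaled CPM (log axis), with mutant libraries left of wild-type libraries, symbols for replicates and bars for group means. The points of the 2 genotypes stand apart for rag1, rag2, cd79a, CD79B, ighz, ighm, pax5 and ebf1a and overlap for blnk.

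Of the recombination genes, rag2 had the higher read number. It was at 9.31 and 7.86 CPM (counts scaled to a common library size with TMM, the trimmed mean of M values) in the mutant libraries, against 27.0 and 25.9 CPM in the wild-type libraries. The raw counts behind these levels were 91 and 87 in mutants and 265 and 196 in wild type. Both mutant libraries stood well below both wild-type libraries, and replicates of a genotype were close to each other. The log2 fold change, mutant over wild type, was -1.63 ± 0.24 (SE, edgeR adjusted p = 1.65e-05). The partner gene rag1 was at 6.24 and 3.25 CPM in mutants and 9.27 and 10.6 CPM in wild type, with 61 and 36 against 91 and 80 reads. Its groups also did not overlap, but the mutant libraries differed from each other. The log2 fold change was -1.10 ± 0.32 (SE, edgeR adjusted p = 0.0332), and 8 of 12 alternatives did not call it. These include edgeR without the block (adjusted p = 0.190), DESeq2 (adjusted p = 0.516) and edgeR without mutant replicate 2 (log2 fold change -0.67, adjusted p = 0.614). The 2 genes are immediate neighbours among protein-coding genes in the RefSeq annotation of GRCz12tu.

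Reads from rag1 made up 40.1% and 29.3% of rag1 and rag2 reads in mutant replicates 1 and 2, with 95% exact binomial (Clopper-Pearson) intervals of 32.3 to 48.4% and 21.4 to 38.1%. In wild type the share was 25.6% and 29.0%, with intervals of 21.1 to 30.4% and 23.7 to 34.7%. Mutant replicate 1 had the highest share, but its interval overlapped those of mutant replicate 2 and wild-type replicate 2. These and later intervals cover counting error only. The terminal transferase gene dntt had 1 and 0 reads in the mutant libraries and 3 and 2 in the wild-type libraries. A count of 0 allows up to 3 reads, or 0.271 to 0.396 CPM depending on the library, so no difference in dntt was detectable at this depth.

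Of the receptor genes, ighz differed most. It was at 1.94 and 1.08 CPM in mutants, from 19 and 12 reads, against 15.3 and 12.5 CPM in wild type, from 150 and 95 reads. The groups were far apart, and the log2 fold change was -3.22 ± 0.34 (SE, edgeR adjusted p = 5.95e-08). The gene is listed under the current symbol ight. With 1 library left out in turn the log2 fold change of ighz lay between -3.67 and -2.83, and each of these fits called it. CD79B, the signalling subunit Cd79b, was at 12.9 and 11.1 CPM in mutants and 47.6 and 37.2 CPM in wild type. Its log2 fold change was -1.81 ± 0.22 (SE, edgeR adjusted p = 6.47e-07), and it was called in 12 of 12 alternatives. Its partner cd79a was at 9.51 and 8.04 CPM in mutants and 18.8 and 17.2 CPM in wild type. This difference was smaller (log2 fold change -1.03 ± 0.25, SE, edgeR adjusted p = 0.00831), and 7 of 12 alternatives did not call it, among them DESeq2 (adjusted p = 0.276) and edgeR without the block (adjusted p = 0.0692).

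The reads of the 2 subunit genes were also compared within each library. CD79B gave 57.5% and 58.0% of the reads of the pair in mutants (intervals 50.7 to 64.2% and 51.1 to 64.7%), against 71.7% and 68.4% in wild type (intervals 68.1 to 75.2% and 63.7 to 72.9%). The shares of the genotypes did not overlap, while the nearest intervals did. The difference in share was not tested across libraries.

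The mu heavy chain gene ighm was by read number the most abundant member, with 1726 and 1126 reads in mutants and 1927 and 1573 in wild type. Its level was 176.6 and 101.7 CPM in mutants and 196.4 and 207.6 CPM in wild type. At this scaling both mutant libraries were below both wild-type libraries, but mutant replicate 1 was only slightly below. As a part of all counts, mutant replicate 1 lay above wild-type replicate 2 (1726 of 9252853 against 1573 of 8838603). The separation of ighm thus depends on the scaling. The log2 fold change was -0.59 ± 0.25 (SE) and was not called (edgeR adjusted p = 0.187). With mutant replicate 1 left out it came to -0.99, and with mutant replicate 2 left out to -0.20, and 0 of 12 alternatives called it. The delta heavy chain gene ighd, which is not a member, was at 10.6 and 9.84 CPM in mutants and 21.8 and 12.7 CPM in wild type (log2 fold change -0.71 ± 0.25, SE, edgeR adjusted p = 0.1004).

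Set against the other heavy chain genes within each library, ighz was a smaller part in mutants. Its reads were 1.03% and 0.962% of ighz, ighm and ighd reads in mutants, with intervals of 0.620 to 1.60% and 0.498 to 1.67%. In wild type they were 6.55% and 5.39%, with intervals of 5.57 to 7.64% and 4.38 to 6.54%. The shares do not depend on scaling, and the intervals of the genotypes were apart. The share of ighd among ighd and ighm reads overlapped between genotypes, at 5.68% and 8.83% in mutants and 9.995% and 5.75% in wild type. Similar immunoglobulin genes can share reads, and the sources used here do not say how such reads were counted. Values of single immunoglobulin genes are therefore uncertain.

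**Figure D2:**
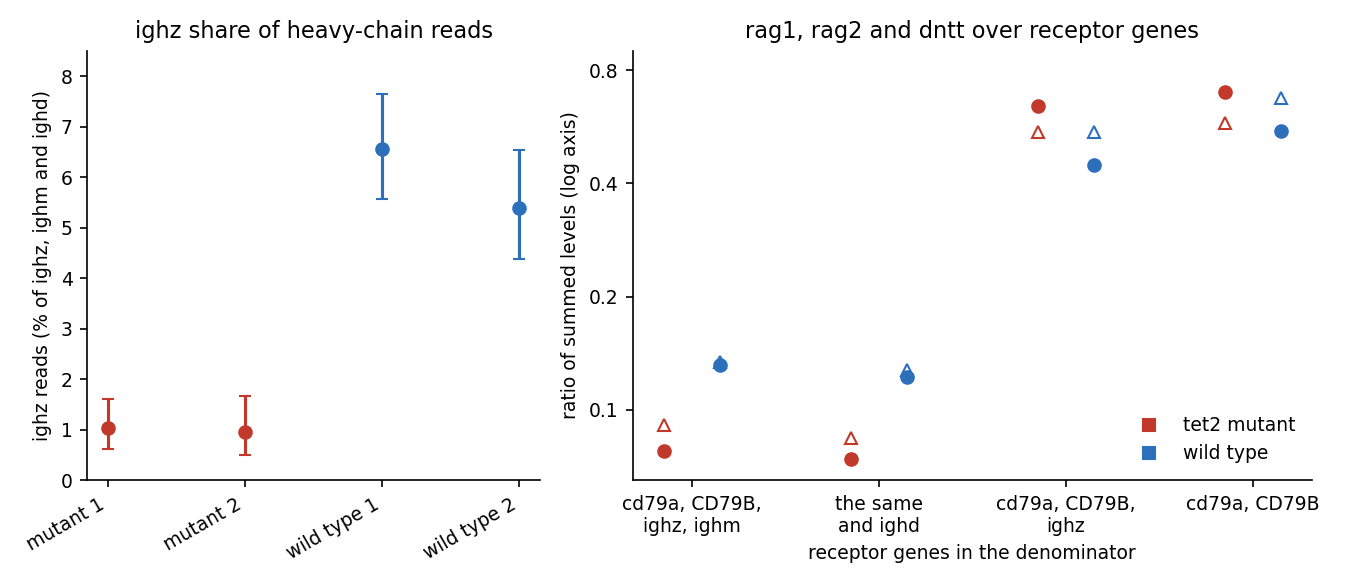
Left, share of ighz among ighz, ighm and ighd reads in each library with exact 95% binomial intervals. Mutant libraries lie near 1% and wild-type libraries above 5%. Right, ratio of the summed level of rag1, rag2 and dntt to that of receptor genes (log axis) for 4 choices of receptor genes. Mutants lie below wild type where ighm is counted and do not where it is left out.

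Recombination genes were then set against receptor genes. The summed level of rag1, rag2 and dntt was 15.7 and 11.1 CPM in mutants and 36.6 and 36.7 CPM in wild type. That of cd79a, CD79B, ighz and ighm was 201 and 122 CPM in mutants and 278 and 274 CPM in wild type. The ratio of the first sum to the second was 0.0779 and 0.0911 in mutants and 0.132 and 0.134 in wild type, a mean log2 difference of -0.65. The groups did not overlap, but ighm alone gave 87.9% and 83.4% of receptor reads in mutants and 70.6% and 75.6% in wild type. Without ighm the ratio was 0.643 and 0.549 in mutants and 0.448 and 0.548 in wild type, so the mean log2 difference turned to 0.26. Against cd79a and CD79B alone it was 0.699 and 0.580 in mutants and 0.551 and 0.675 in wild type, and the groups overlapped. The lower ratio of recombination to receptor reads in mutants was thus found only where ighm was counted among these choices. With the members known beforehand no test was made of these ratios.

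The transcription factor gene pax5 was at 4.81 and 2.44 CPM in mutants, against 20.9 and 16.4 CPM in wild type. Behind these levels stood 47 and 27 reads in mutants and 205 and 124 in wild type. Both mutant libraries were far below wild type, and the log2 fold change of pax5 was -2.40 ± 0.29 (SE, edgeR adjusted p = 5.55e-07), called in 12 of 12 alternatives. Leaving out 1 library moved it between -2.93 and -1.96. The gene of the factor acting before it, ebf1a, was at 1.84 and 0.722 CPM in mutants and 5.91 and 5.67 CPM in wild type, from 18 and 8 against 58 and 43 reads. Its groups did not overlap, and the log2 fold change was -2.23 ± 0.45 (SE, edgeR adjusted p = 0.00135). In 4 of 12 alternatives ebf1a was not called. Its log2 fold change was -2.30 in DESeq2 (adjusted p = 0.109), -2.23 in the bias-adjusted edgeR fit (adjusted p = 0.0753), -2.18 in edgeR without the block (adjusted p = 0.0556) and -1.65 in edgeR without mutant replicate 2 (adjusted p = 0.108).

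The adaptor gene blnk behaved otherwise. It was at 51.8 and 71.4 CPM in mutants and 74.0 and 57.5 CPM in wild type, so that the libraries overlapped. Its log2 fold change was -0.10 ± 0.22 (SE, edgeR adjusted p = 0.886), and the sign changed with the scaling and with the library left out. In the RefSeq annotation of GRCz12tu, blnk and dntt are immediate neighbours.

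**Figure D3:**
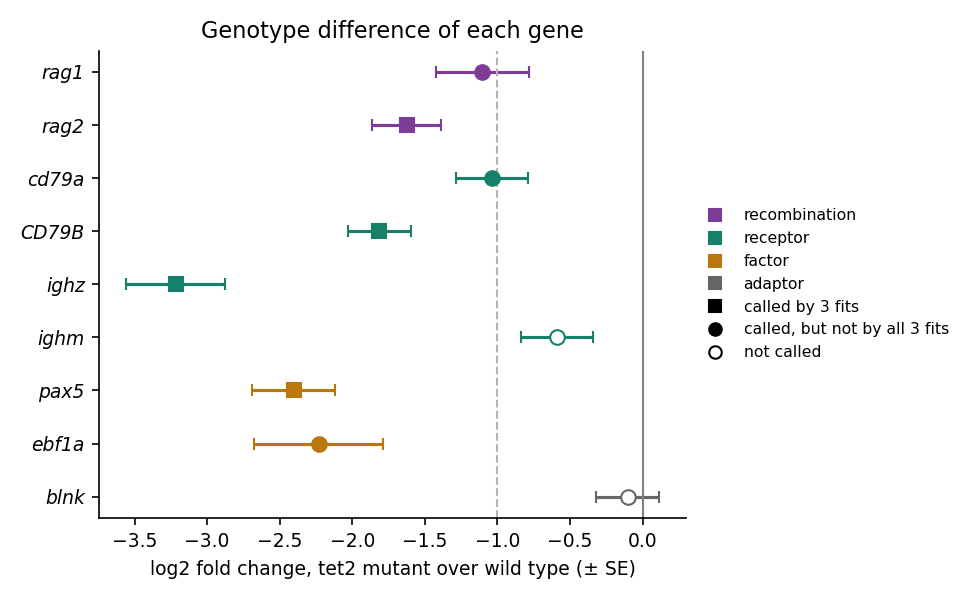
Log2 fold change, mutant over wild type, of 9 member genes with standard errors, coloured by role. Squares mark the 4 genes called by 3 fits, and open circles mark ighm and blnk, which were not called. The dashed line is the fold threshold.

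The order of the 9 genes by log2 fold change ran from ighz through pax5, ebf1a, CD79B, rag2, rag1, cd79a and ighm to blnk. Neighbours in this order such as pax5 and ebf1a, CD79B and rag2, or rag1 and cd79a differed by less than their standard errors. Receptor genes stood at several places of this order, from ighz at -3.22 to ighm at -0.59, and the recombination genes rag2 and rag1 lay within that span. The 4 genes called by all 3 fits thus came from each of the recombination, receptor and factor groups.

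**Figure D4:**
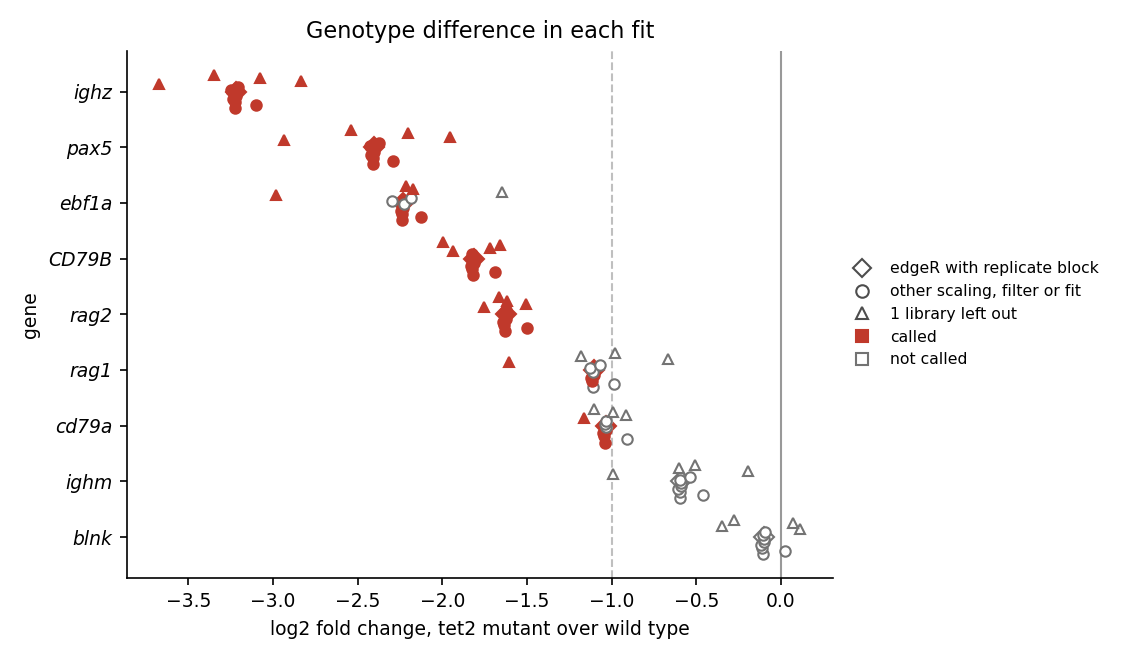
Log2 fold change, mutant over wild type, of 9 member genes in edgeR with the replicate block (diamonds), in other scalings, filters and tests (circles) and with 1 library left out (triangles). Points of ighz, pax5, CD79B and rag2 are filled, and so called, throughout, while rag1, cd79a and ebf1a are called in part.

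Further genes of the same processes were taken from 4 lists. The counts called in each list stand beside 1.90% lower and 1.80% higher among all tested genes. In the list of recombination and end joining, 22 genes were tested, of which rag1 and rag2 were called lower and 0 higher. The list's median log2 fold change was -0.33, beside -0.0095 over all tested genes. Its log2 fold changes were negative for 21 of the 22, beside 8740 of 17242 tested genes. End joining genes were not called, such as lig4, the ligase that seals the joints (log2 fold change -0.36, edgeR adjusted p = 0.557), and PRKDC, the kinase that holds broken ends (log2 fold change -0.32, edgeR adjusted p = 0.472). The most abundant genes by reads, hmgb2a and hmgb2b, encode chromatin proteins that bend DNA and had log2 fold changes of -0.57 and -0.27 (edgeR adjusted p = 0.452 and 0.724).

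In the receptor and immunoglobulin list, 9 genes were tested, 4 were called lower and 0 higher, with a median of -0.83. The list held only part of the light chain genes, and others are counted with the segments below. Besides the 3 called members, the light chain constant gene igic1s1 was called. It was at 2.46 and 2.17 CPM in mutants and 4.38 and 9.24 CPM in wild type (log2 fold change -1.48 ± 0.39, SE, edgeR adjusted p = 0.0163), and 5 of 12 alternatives did not call it. Without wild-type replicate 2, the library with its highest level, the adjusted p of igic1s1 was 0.574. Another light chain constant gene, IGKC (5 of 5), now igl1c3, ran the other way, at 5.52 and 2.08 CPM in mutants and 0.917 and 2.38 CPM in wild type, and was not called (edgeR adjusted p = 0.255).

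Single immunoglobulin segments had few reads. Over 39 heavy chain variable segments there were 117 and 29 reads in mutants and 157 and 98 in wild type, or 11.97 and 2.62 CPM against 16.0 and 12.9 CPM. Reads fell on 25 and 16 of the segments in mutants and on 31 and 30 in wild type. Mutant replicate 2 stood lowest on both measures, and mutant replicate 1 was close to wild-type replicate 2 in level. Of 27 such segments tested, 0 were called. The largest number on 1 segment was 24 reads of ighv14-1 in mutant replicate 1. Over 10 light chain variable segments there were 27 and 11 reads in mutants and 66 and 39 in wild type, of which 33 in wild-type replicate 1 came from igl2v1. That gene had 1 and 0 reads in mutants and 0 in wild-type replicate 2, so its call (edgeR adjusted p = 0.0470) rests on 1 library. The 6 light chain constant genes summed to 13.5 and 7.13 CPM in mutants and 10.4 and 19.5 CPM in wild type, with overlap between the groups. Of 6 tested light chain variable segments and 6 tested constant genes, 1 each was called lower and 0 higher. These segment groups were formed after the data were seen.

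In the list of B lineage transcription factors, 29 genes were tested, 4 were called lower and 0 higher, with a median of -0.45. The called genes were pax5, ebf1a, cmyb and pou2f2a. The gene cmyb encodes the Myb factor of progenitors of several blood lineages. It was at 496 and 608 CPM in mutants and 1624 and 1592 CPM in wild type (log2 fold change -1.55 ± 0.34, SE, edgeR adjusted p = 0.00372). Neither of its mutant libraries came near wild type, though the bias-adjusted fit (adjusted p = 0.0737) and edgeR without mutant replicate 1 (adjusted p = 0.0533) did not call cmyb. The octamer-binding factor gene pou2f2a was at 5.42 and 4.97 CPM in mutants and 14.6 and 7.65 CPM in wild type (edgeR adjusted p = 0.0334), and 7 of 12 alternatives did not call it. Without wild-type replicate 1 its log2 fold change was -0.58. Of the factors not called, the 2 most abundant by reads were xbp1 and spi1l (now spi1a), with log2 fold changes of 0.16 and 0.25 (edgeR adjusted p = 0.861 and 0.705). Ikaros, ikzf1, needed for lymphoid cells, was not called either (log2 fold change -0.29, edgeR adjusted p = 0.539). The gene bcl6a passed the edgeR adjusted p but missed the fold threshold (log2 fold change -0.98, edgeR adjusted p = 0.00821, DESeq2 adjusted p = 0.258).

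In the list of B cell receptor signalling, 45 genes were tested, 2 were called lower and 1 higher, with a median of -0.10. CD37, a tetraspanin of the B cell surface, was at 26.7 and 18.4 CPM in mutants and 79.2 and 60.8 CPM in wild type (log2 fold change -1.64 ± 0.21, SE, edgeR adjusted p = 1.29e-06), called in 12 of 12 alternatives. The gene swap70a, whose mammalian counterpart acts in B cell activation, was at 4.50 and 2.26 CPM in mutants and 14.2 and 9.11 CPM in wild type (log2 fold change -1.81 ± 0.31, SE, edgeR adjusted p = 2.08e-04). It was not called without wild-type replicate 1 (adjusted p = 0.0824). Its paralog swap70b was not called (log2 fold change 0.22, edgeR adjusted p = 0.694). The gene called higher was PLCG2 (2 of 2), now si:ch211-260p9.3, named in the count table as a copy of a phospholipase that acts below the receptor. It was at 14.9 and 12.9 CPM in mutants and 3.97 and 2.38 CPM in wild type (log2 fold change 2.14 ± 0.31, SE, edgeR adjusted p = 1.43e-05), and 12 of 12 alternatives called it. The copy plcg2 itself, with more reads, was not called (log2 fold change 0.18, edgeR adjusted p = 0.757). Nor was the kinase gene btk (log2 fold change 0.037, edgeR adjusted p = 0.961). The B cell marker cd22 was not called (log2 fold change -0.028, edgeR adjusted p = 0.970). The entry CD22, now si:dkey-24p1.1, was not called either (log2 fold change -0.51, edgeR adjusted p = 0.412). The early lymphoid marker il7r had 22 and 11 reads in mutants and 10 and 6 in wild type. Its level was 2.25 and 0.993 CPM in mutants and 1.02 and 0.792 CPM in wild type, so the libraries overlapped. It was not called (log2 fold change 0.78, edgeR adjusted p = 0.672). Other genes passed the edgeR adjusted p and missed only the fold threshold. The kinase gene syk (log2 fold change -0.98, edgeR adjusted p = 0.00246, libraries overlapping) and cxcr4a (-0.83, edgeR adjusted p = 0.0274) were lower. For cxcr4a levels were 48.5 and 47.0 CPM in mutants and 56.7 and 126.8 CPM in wild type. Its paralog cxcr4b was not called (log2 fold change -0.32, edgeR adjusted p = 0.677). PTPN6 was higher (0.72, edgeR adjusted p = 0.0494). The second entry, ptpn6, was not called (log2 fold change 0.16, edgeR adjusted p = 0.783). DESeq2 gave adjusted p = 0.0668 for syk, 0.258 for cxcr4a and 0.204 for PTPN6. The invariant chain genes cd74a and cd74b, the most abundant of the list by reads, had log2 fold changes of -0.13 and 0.0033 (edgeR adjusted p = 0.898 and 0.997).

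**Figure D5:**
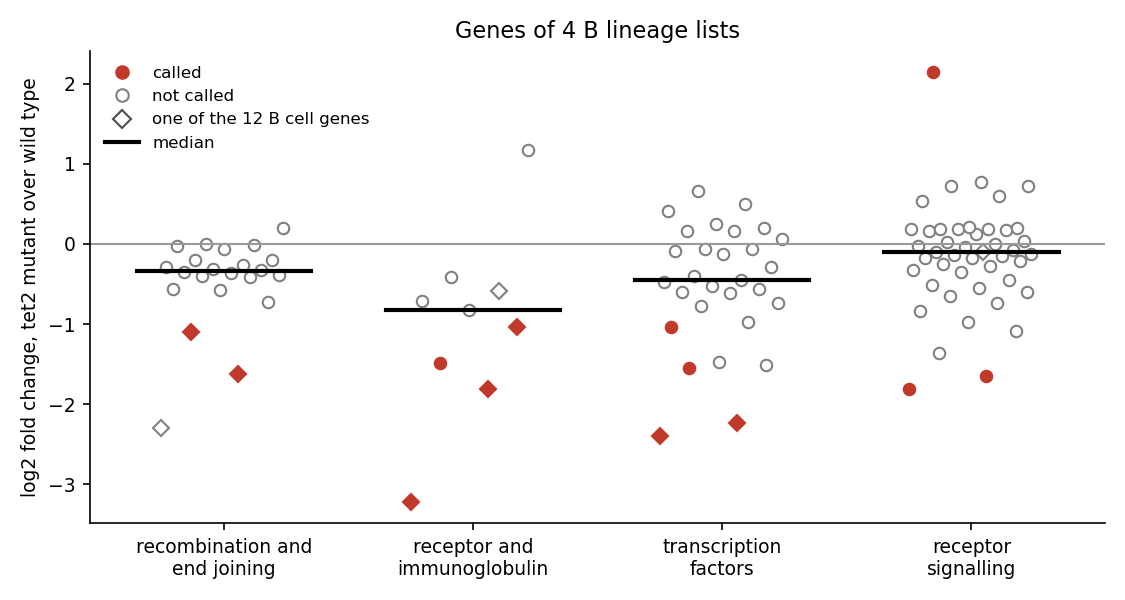
Log2 fold change, mutant over wild type, of each tested gene in 4 B lineage lists, with called genes in red, member genes as diamonds and black bars for list medians. Called genes lie below 0 except PLCG2 (2 of 2) among the signalling genes.

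Over the 4 lists without the members, 95 genes were tested, 5 were called lower and 1 higher, with a median of -0.22. The shares among all tested genes were 1.90% lower and 1.80% higher. All 3 fits called 3 of the 95 lower and 1 higher, beside 0.580% lower and 0.522% higher among all tested genes. Members were thus 7 of the 12 genes called lower among the 105 genes tested from these lists. CD79B and SWAP70 are among the called genes that the study matched to a published gene set, and the lists here were drawn up with earlier results known, so the counts are not independent evidence of a direction.

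By a fixed rule, the 5 genes nearest in pattern to pax5 and to rag1 over the 4 libraries were found. Distance was the root mean square difference of centred log2 CPM, with 0.5 added to each CPM. Only genes with a mean of 20 or more reads were eligible. For pax5 they were tnni2a.4 (0.054), COBLL1 (2 of 2) (0.11), sc:d136 (0.12), si:dkey-19a16.2 (0.16) and sult1st6 (0.16). Of these COBLL1 (2 of 2), now cobll1a, had the most reads, with 12.2 and 5.60 CPM in mutants and 41.9 and 37.9 CPM in wild type. The rest had few mutant reads, from 11 and 4 for tnni2a.4 to 21 and 9 for sult1st6. At such levels the added 0.5 affects the distance. The log2 fold change of tnni2a.4 was -2.77, beside -2.40 for pax5. The 5 genes nearest to rag1 were si:ch73-106n3.1 (0.057), zgc:101663 (0.057), qsox1 (0.066), AK1 (0.081) and cep72 (0.082). The distances rest on 4 libraries and are a description.

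Total counts ranged from 8838603 to 10710913 per library. Markers of other cells were read in the same libraries. Among all tested genes, 1.90% were called lower and 1.80% higher, and by the 3 fits together 0.580% lower and 0.522% higher. Of 20 neutrophil markers tested, 2 were called higher and 0 lower (median log2 fold change 0.72), with an overlapping summed level of 4507 to 8334 CPM in mutants and 3218 to 5017 CPM in wild type. Of 19 red cell markers 3 were called lower and 0 higher (median -0.85), with sums of 23683 to 30621 CPM in mutants and 54070 to 85760 CPM in wild type. Of 22 mitosis genes 7 were called lower and 0 higher (median -0.85), with sums of 1230 to 1310 CPM in mutants and 2293 to 2335 CPM in wild type. Of 26 T and NK cell markers 0 were called (median -0.012), with 2 lower and 1 higher at an edgeR p under 0.05 before adjustment, beside the same 8.37% and 8.73% over all genes, and 0 called by the 3 fits together. Their sums were 159 to 171 CPM in mutants and 230 to 271 CPM in wild type, which do not overlap. These sums include the chemokine receptor gene ccr9a, at 78.8 and 107 CPM in mutants and 156 and 209 CPM in wild type. It missed the call only on the fold threshold (log2 fold change -0.97, edgeR adjusted p = 0.00558, DESeq2 adjusted p = 0.00880). Without ccr9a, singled out after its values were seen, the sums were 92.0 and 51.5 CPM in mutants and 74.3 and 61.6 CPM in wild type, which overlap. Of 27 macrophage markers 7 were called lower and 4 higher (median -0.17), with overlapping sums of 2032 to 3530 CPM in mutants and 1415 to 2192 CPM in wild type. Of these sums grn1 alone gave 962 and 2203 CPM in mutants and 1026 and 580 CPM in wild type. Many of the markers were copies of MFAP4, called in both directions. The call of MFAP4 (3 of 13) rests on 1 library, with 176 and 2 reads in wild type and 1 and 0 in mutants. Of 9 thrombocyte markers 1, f5, was called higher and 0 lower (median 0.33), with sums of 504 to 545 CPM in mutants and 367 to 417 CPM in wild type. Markers at 0 in every library were the macrophage genes c1qc and MFAP4 (2 of 13). Of 15 stem and progenitor genes 1 was called lower, cmyb, and 1 higher, fli1a (median -0.13). Their sums were 1314 to 1324 CPM in mutants and 2312 to 2512 CPM in wild type. Of these sums cmyb alone gave 496 and 608 CPM in mutants and 1624 and 1592 CPM in wild type. The 3 fits together called 6 mitosis genes and 2 red cell markers lower, and 1 neutrophil and 1 thrombocyte marker higher. They called 1 macrophage marker lower and 3 higher, and 1 stem and progenitor gene lower and 0 higher. At an unadjusted edgeR p under 0.05, 21 mitosis genes and 13 red cell markers were lower and 0 higher. Neutrophil markers gave 2 lower and 12 higher, macrophage markers 8 and 8, thrombocyte markers 0 and 3, stem and progenitor genes 3 and 2. The part of these cell types in the levels of the B cell genes was not tested. In bulk libraries, fewer B lineage cells and less of each transcript per cell cannot be told apart.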

How the data were processed

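Polyadenylated RNA of sorted kidney marrow progenitors was sequenced as single-end 50-bp reads. The authors used FastQC 0.10.1 for read quality, STAR 2.3.0 for alignment and bedtools 2.16.1 for counting against Ensembl genes of the Zv9 genome. Raw read counts were deposited. How strand, multi-mapping reads and overlaps between genes were handled was not stated in the sources used here.

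Genes with more than 5 reads over the 4 libraries were kept, 17242 of 32434. Counts were TMM-scaled and tested with edgeR 4.0.16 (quasi-likelihood F-test, default settings, two-sided, R 4.3.3), with the replicate number as a block as in the methods of the study, which leaves 1 residual degree of freedom. P-values were adjusted by Benjamini-Hochberg over all tested genes. The edgeR script was tested on simulated data. DESeq2 1.42.0 was an alternative. Standard errors were taken as the size of the log2 fold change divided by the root of F. CPM used TMM factors of 0.858 to 1.07. Same-numbered libraries deviated together with r = 0.18 across 11385 genes, which are not independent replicates. No library was a copy of another (chi-square per degree of freedom 19.6 to 74.8 over 6 pairs).

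The members and lists were chosen with earlier results of these data known. List genes were matched by table or current symbol. Of the drawn-up lists, 2 symbols and 2 identifiers were dropped because they name other genes. The rule for named genes took every member, the called genes of each B lineage list, the 2 most abundant not called, called and abundant genes of other cell types, and the nearest patterns. Genes of other cell types are given here as counts. A few uncalled genes named beside a called paralog or as examples, lig4, PRKDC, ikzf1, btk, cd22, CD22, il7r, swap70b, plcg2 and IGKC (5 of 5), were chosen after their values were seen. So were bcl6a, syk, cxcr4a, PTPN6 and ccr9a, which missed the call only on the fold threshold, and ptpn6 and cxcr4b, named beside them.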

Additional observations from a re-analysis of the deposited data

How the results depend on the processing

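Of the members, pax5, CD79B, ighz and rag2 kept their direction and call in 12 of 12 alternatives. The number of members called, 7 with the replicate block, was 4 with no replicate block, 4 in DESeq2 with the block and 4 in the bias-adjusted edgeR fit, and ranged from 4 to 7 with 1 library left out. The lists together had 13 calls with the block, 8 with no replicate block, 8 in DESeq2, 7 in the bias-adjusted fit and 8 to 15 with 1 library left out. Over all genes 639 were called with the block, 258 with no replicate block, 223 in DESeq2, 197 in the bias-adjusted fit and 412 to 940 with 1 library left out. The cause of these differences between fits was not tested. Fits on 3 libraries used no replicate block, and a genotype with 1 library was assumed to vary like the other. Scaling by library totals moved the median of all genes by 0.12 on the log2 scale and gave 249 calls lower and 438 higher, against 328 and 311 with TMM scaling.

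The log2 fold change of blnk was 0.026 with library totals and lay between -0.35 and 0.12 with 1 library left out, positive without mutant replicate 1 and without wild-type replicate 1 (0.073). The log2 difference in the ratio of recombination to receptor genes, -0.65, was 0.062 against cd79a and CD79B alone and 0.26 with ighm left out, and lay between -0.77 and -0.54 with 1 library left out. The alternatives without ighm only and with ighd were chosen after seeing the data. Depth limits dntt and the single immunoglobulin segments.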
